A study of Mus musculus with 6 samples.

Results

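The open chromatin of 10 genes that carry the canonical Wnt signal was examined in ATAC-seq peak lists of mouse atrioventricular cushion mesenchymal cells. They are the co-receptors Lrp5 and Lrp6, beta-catenin (Ctnnb1), the scaffolds Apc, Axin1 and Axin2, and the nuclear factors Lef1, Tcf7, Tcf7l1 and Tcf7l2. The genes, 10 of 21887 protein-coding genes, were chosen by name with earlier results of these data known. Every peak overlapping the gene or 10 kb either side was taken. ATAC-seq marks open chromatin by transposase insertion. The cells are an immortalised line from embryonic tissue that forms heart valves and septa, of a strain labelled H- 2Kb-tsA58 transgenic, a transgene that drives a temperature-sensitive viral T antigen. That transgene, serum-supplemented medium and passage 6 were common to all libraries, each made from 54000 cells. The high-glucose group was kept in 25 mM glucose for 48 h (3 libraries) and the normal-glucose group in 5.5 mM glucose, the maintenance medium, for 48 h (3 libraries). No library is labelled as an osmotic control, and the labels do not say that replicates were separate cultures, so p-values measure only the spread between libraries, which may be technical.

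High-glucose lists held 22156, 25020 and 22598 peaks (replicates 1, 2 and 3), and normal-glucose lists held 24263, 66 and 40350. A minimum of 1000 peaks kept 5 lists; normal-glucose replicate 2, with 66, had 0 peaks at the 10 genes and entered no comparison. Without read counts in the lists the depth is unknown, and normal-glucose replicate 3 stands apart by its length. Peaks of the 5 lists that overlapped by at least 1 bp were merged into 49048 regions. Strength is given as a percentile: the share of a library's own peaks whose authors' −log10 p was no higher. It ranks peaks within 1 list and measures no change between libraries. A peak within 1 kb of the gene start was present in all 5 libraries for 6 of 8 cushion mesenchyme markers, for 0 of 6 markers each of endothelium, cardiomyocytes and epithelium, and for 2 of 6 of blood (Runx1 and Spi1). Among all protein-coding genes the share was 37.2%. The endothelial marker Kdr had such a peak in 4 libraries, as did the cushion markers Postn and Twist1.

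In canonical Wnt signalling a ligand joins a Frizzled receptor to Lrp5 or Lrp6. Without it, Axin and Apc hold beta-catenin for phosphorylation and destruction; with it, beta-catenin accumulates and enters the nucleus. There it binds the DNA-binding TCF/LEF factors and turns them from repressors into activators. In the mouse heart the pathway is known for its part in endocardial cushion formation and in growth of valve mesenchyme.

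Open chromatin shared by all 5 libraries was found at 7 of the 10 genes, and Lrp6, Lef1 and Tcf7 had no shared region. Across all protein-coding genes 50.0% had such a region in the same window, although the median window is 37.2 kb and those here span 47.1 to 211.9 kb. The 10 windows held 53 regions, of which 13 (24.5%) were present in all 5 libraries, against 25.1% of all regions. Another 25 (47.2%) were seen in a single library, against 39.7% of all regions. Per length the 10 windows held 1.13 shared regions per 100 kb, and all gene windows pooled held 1.08. The genes differed among themselves, with 2.46 shared regions per 100 kb at Apc, 2.12 at Ctnnb1 and 1.89 at Axin2, and 0 at Lrp6, Lef1 and Tcf7.

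**Figure D1:**
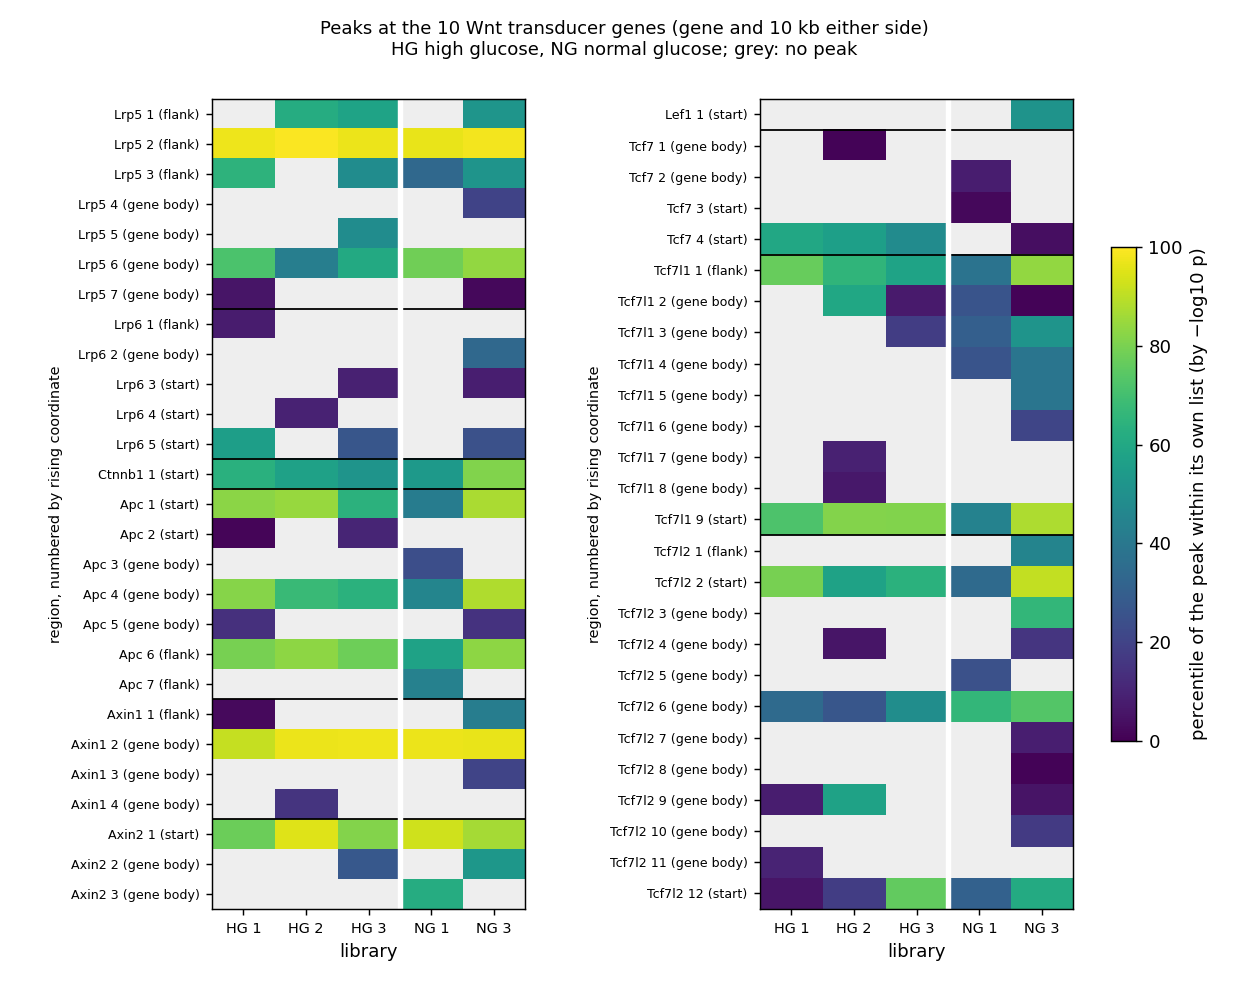
Percentile of the peak in each of the 53 regions (rows, grouped by gene and numbered by rising coordinate) in 3 high-glucose (HG) and 2 normal-glucose (NG) libraries (columns), with grey for no peak. The 13 rows filled in all 5 columns are the shared regions, and most other rows hold a peak in 1 library.

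Of the 13 shared regions 6 lay at starts and 7 elsewhere. Of 13 regions within 1 kb of a start, 6 were shared, against 4 of 31 elsewhere in the genes and 3 of 9 in the flanks. The same split was not counted over all regions, so this contrast cannot be called particular to the 10 genes. Starts were those listed by RefSeq (GRCm38.p6, the coordinates of mm10) for Ctnnb1, Axin2, Lef1, Tcf7, Tcf7l1 and Tcf7l2, and both gene ends stood in for Lrp5, Lrp6, Apc and Axin1. A start peak was present in all 5 libraries at 6 of the 10 genes (Ctnnb1, Apc, Axin2, Tcf7, Tcf7l1 and Tcf7l2), against 37.2% of all protein-coding genes. Lrp5 and Axin1, searched only at their gene ends, had none in any library, as did 46.8% of all genes. A start elsewhere in these 2 genes would have been missed, so their promoters cannot be called closed. Shared regions were wider, with a median of 369 bp against 94 bp for those in 1 library, and in all regions of the genome the medians were 319 and 96 bp. The merged width of a shared region joins peaks of 5 lists.

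**Figure D2:**
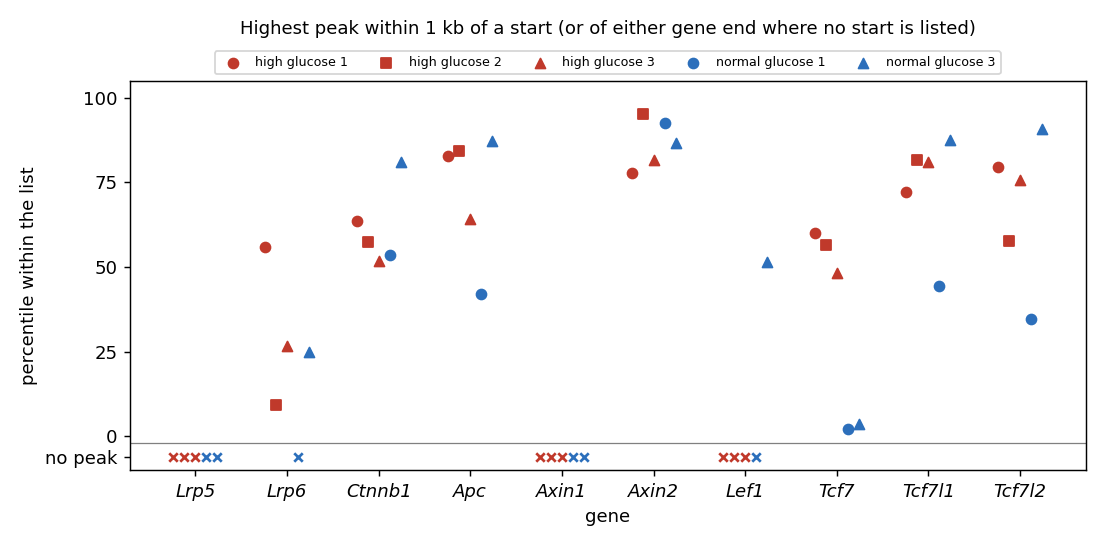
Highest percentile of a peak within 1 kb of a start, or of either gene end where no start is listed, for each gene (x axis) in 3 high-glucose (red) and 2 normal-glucose (blue) libraries; crosses mark libraries with no peak. Axin2 stands at 77.7 or above in every library, while at Tcf7 the high-glucose libraries stand between 48.2 and 60.0 and the normal-glucose libraries at 2.3 and 3.6.

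The co-receptors Lrp5 and Lrp6, single-pass membrane proteins whose tails recruit Axin when Wnt binds, showed little shared openness of their own. Within Lrp5 (chr19:3584825-3686585) 1 region was shared, at chr19:3638658-3638897, at least 47688 bp from either end. Its percentiles were 71.5, 42.6 and 60.7 in high-glucose replicates 1, 2 and 3, against 78.3 and 83.6 in normal-glucose replicates 1 and 3. Every high-glucose value lay below both normal-glucose values. How many of all shared regions have this order was not counted. Among genes with a start peak in all 5 libraries, 18.1% of 8142 had it at the start. The strongest region of all 53, judged by its lowest library, also fell in the Lrp5 window, at chr19:3575700-3575929, with percentiles of 97.3, 99.4 and 97.0 in high glucose and 96.8 and 98.4 in normal glucose. It lies 8896 bp outside Lrp5 and overlaps Ppp6r3, a phosphatase subunit gene whose listed start is within 1 kb. Its summits in the 5 libraries fell within 6 bp of each other, so position and rank hardly differed between libraries.

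At Lrp6 (chr6:134446476-134566913) all 3 start regions lay around its upper end, and each was in 3 libraries or fewer. The region at chr6:134567158-134567314 had percentiles of 56.0 and 26.8 in high glucose (replicates 1 and 3) and 24.8 in normal glucose (replicate 3). That at chr6:134566767-134566943 stood at 9.2 in high-glucose replicate 3 and 8.3 in normal-glucose replicate 3, and that at chr6:134566951-134567057 at 9.4 in high-glucose replicate 2 alone. Every high-glucose library thus had some start peak, and of the normal-glucose libraries only replicate 3 had one, so the groups overlapped. The other 2 regions of the Lrp6 window were each in 1 library.

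Ctnnb1 encodes beta-catenin, which both joins cadherins to the cytoskeleton and carries the Wnt signal to the nucleus. Its window (gene chr9:120933400-120960507) held a single region, at the start, and it was shared (chr9:120933219-120933587). Percentiles were 63.6, 57.4 and 51.7 in high-glucose replicates 1, 2 and 3, and 53.6 and 80.9 in normal-glucose replicates 1 and 3, so the groups overlapped. Summits lay at -74, -97 and -36 bp from the first listed start in the high-glucose libraries. In normal glucose they lay at 126 bp in replicate 1 and at -89 bp in replicate 3, so replicate 1 alone had its summit downstream. The sequence is shown because it is the sole open site of the gene; as RefSeq (GRCm38.p6) gives it, it runs from 250 bases before to 50 after that start (chr9:120933150-120933449, plus strand), with capitals for the 106 bases covered by peaks in all 5 libraries.
Ctnnb1: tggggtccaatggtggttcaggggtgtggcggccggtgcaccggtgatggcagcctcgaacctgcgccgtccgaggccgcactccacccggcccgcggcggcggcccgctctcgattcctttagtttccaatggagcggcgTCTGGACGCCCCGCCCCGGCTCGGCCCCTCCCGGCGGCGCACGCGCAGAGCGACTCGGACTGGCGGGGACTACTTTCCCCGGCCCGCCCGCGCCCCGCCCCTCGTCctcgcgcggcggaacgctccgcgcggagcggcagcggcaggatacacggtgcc

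Of the destruction complex scaffolds, Axin2 is both a component and a classical target that Wnt signalling induces, forming negative feedback. Of the genes with a listed start it had the highest start peak, judged by the lowest library. The region at chr11:108920122-108920672 had percentiles of 77.7, 95.3 and 81.6 in high glucose (replicates 1, 2 and 3) and 92.6 and 86.6 in normal glucose (replicates 1 and 3). Both groups ranked it in the upper part of their lists, and they overlapped. Its summits lay at -144, -116 and -85 bp from the start in high glucose and at -91 and -109 bp in normal glucose. Capitals in the promoter (chr11:108920099-108920398, plus strand) mark the 254 of 300 bases covered in all 5 libraries, the widest common cover of the promoter windows examined.
Axin2: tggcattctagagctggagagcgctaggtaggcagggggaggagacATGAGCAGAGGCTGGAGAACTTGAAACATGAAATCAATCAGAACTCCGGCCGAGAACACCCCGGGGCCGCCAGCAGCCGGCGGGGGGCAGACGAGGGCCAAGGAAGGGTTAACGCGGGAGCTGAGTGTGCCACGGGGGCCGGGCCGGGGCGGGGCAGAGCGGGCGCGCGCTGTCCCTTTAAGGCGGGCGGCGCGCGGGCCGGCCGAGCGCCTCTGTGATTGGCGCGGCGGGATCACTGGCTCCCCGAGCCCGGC

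Axin1, the constitutive scaffold that is limiting for the complex, had no peak within 1 kb of either end of the gene (chr17:26131217-26195811). A shared region lay 7160 bp inside its lower end, at chr17:26138377-26138797. Percentiles there were 91.4, 97.1 and 97.3 in high glucose and 97.0 and 96.5 in normal glucose. Every library ranked it at 91.4 or higher, and a listed start of the gene model Gm46600 lies within 1 kb. No start is listed for Axin1 itself, so whether this region lies at a start of Axin1 could not be examined.

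Apc, a tumour suppressor that holds beta-catenin for phosphorylation, had 3 shared regions, as many as Tcf7l2. The first, at chr18:34220782-34221156, lay 485 bp inside the lower gene end and stood at 82.8, 84.4 and 64.2 in high-glucose replicates 1, 2 and 3, and at 42.1 and 87.3 in normal-glucose replicates 1 and 3. It overlaps the gene model Gm10548. Beside it, chr18:34221158-34221255 was present in high-glucose replicates 1 and 3 alone, at 1.3 and 10.4. The second shared region, at chr18:34247417-34247773, lay 27120 bp inside the gene, with 81.8, 67.6 and 63.8 in high glucose and 45.4 and 88.1 in normal glucose. The third, at chr18:34330916-34331184, lay 8726 bp beyond the gene and overlaps Srp19, a signal recognition particle subunit, with 79.6, 83.2 and 77.8 in high glucose and 57.7 and 83.2 in normal glucose. In all 3 normal-glucose replicate 1 was lowest, and its replicate 3 was at or above the high-glucose range, so the 2 normal-glucose libraries enclosed it.

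The nuclear factors Lef1, Tcf7, Tcf7l1 and Tcf7l2 bind the same core DNA sequence and differ in how far they repress or activate. Tcf7l1 is known chiefly as a repressor, and Lef1 and Tcf7 chiefly as activators. Both Tcf7l factors were open at their starts in all 5 libraries, whereas Lef1 had a single region in 1 library.

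At Tcf7l1 (chr6:72626371-72789045, minus strand) a merged region, chr6:72789003-72789691, spanned the start and was the widest of the shared regions. It joined 2 peaks in each library except normal-glucose replicate 1, which had 3. It stood at 72.1, 81.6 and 80.9 in high-glucose replicates 1, 2 and 3, and at 44.3 and 87.6 in normal-glucose replicates 1 and 3. The normal-glucose values enclosed those of high glucose. Summits lay 282, 240 and 240 bp before the start in high glucose and 260 and 238 bp before it in normal glucose, a spread of 44 bp. A second shared region, chr6:72616655-72617023, lay 9348 bp beyond the other end, within 1 kb of a start of Tgoln1, a trans-Golgi protein gene, with 76.6, 65.4 and 58.1 in high glucose and 38.2 and 83.8 in normal glucose. Inside the gene, 111378 bp from the start, chr6:72677528-72677667 had no peak in the high-glucose libraries and stood at 26 and 38.7 in those of normal glucose. It overlaps the gene model Gm31391 and lies within 1 kb of a start listed for it. The promoter is shown (chr6:72788996-72789295, minus strand); the 50 bases in capitals at its distal end are those covered in all 5 libraries.
Tcf7l1: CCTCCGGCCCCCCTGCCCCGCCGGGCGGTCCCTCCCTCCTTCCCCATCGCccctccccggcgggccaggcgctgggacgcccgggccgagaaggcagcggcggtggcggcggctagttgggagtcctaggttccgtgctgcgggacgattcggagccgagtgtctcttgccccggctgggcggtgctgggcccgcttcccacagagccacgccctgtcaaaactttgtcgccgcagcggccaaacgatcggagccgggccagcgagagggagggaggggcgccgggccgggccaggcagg

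Tcf7l2, the main TCF factor of many epithelia, had the most regions (12) in the longest gene (chr19:55741797-55933659). Its start region, chr19:55741387-55741850, stood at 79.4, 57.8 and 63.9 in high-glucose replicates 1, 2 and 3, and at 34.7 and 90.7 in normal-glucose replicates 1 and 3, again with the normal-glucose values on either side, and it overlaps the gene model Gm31734. Summits lay 17, 10 and 23 bp before the start in high glucose, and 177 and 254 bp before it in normal glucose. Summits were thus nearer the start in every high-glucose than in either normal-glucose library. Of the 4 genes with a shared region at the first listed start, this was the only one where the groups' summits did not overlap. It was picked out after the values were seen, and how often this occurs over all shared start regions was not counted. High-glucose replicates 1 and 2 had 2 peaks each in the region and the other libraries 1, and the summit is that of the highest-ranked peak. A shared region inside the gene, chr19:55795460-55795627, stood at 34.4, 26.6 and 48.9 in high glucose and at 66.1 and 73.4 in normal glucose, every high-glucose value being lower. That order was not counted over all shared regions, and 18.1% of 8142 genes had it for start peaks present in all 5 libraries. At a −log10 q of at least 5 this region kept a peak only in high-glucose replicate 3 and both normal-glucose libraries. The start region lost its peak in normal-glucose replicate 1 at that cut. The third shared region, chr19:55895472-55895695, lay 151 bp from an internal listed start and was variable, at 5.6, 18 and 75.8 in high glucose and 30.9 and 61.2 in normal glucose. With the same −log10 q cut it kept a peak only in replicate 3 of each condition.

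**Figure D3:**
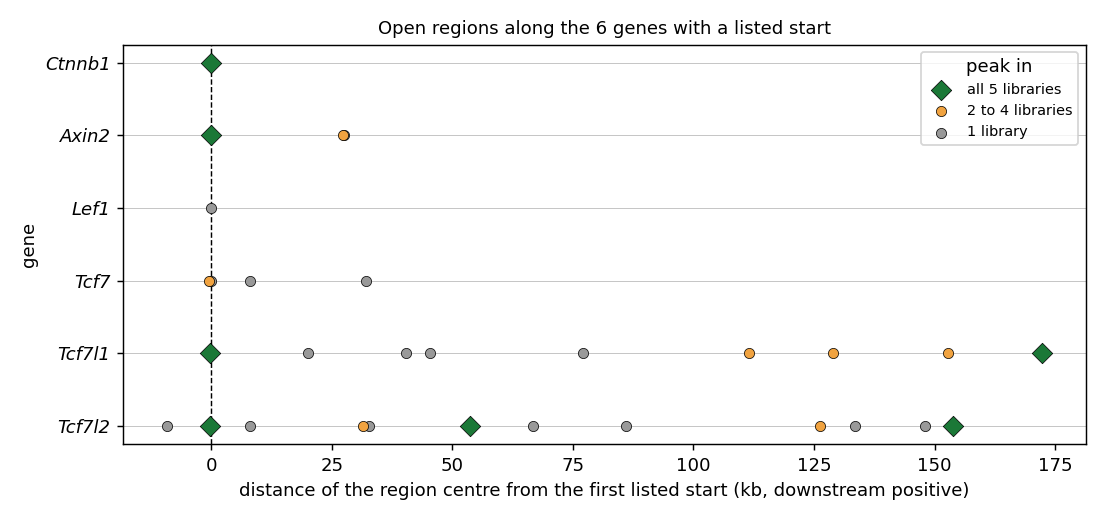
Position of each region (x axis, distance in kb from the first listed start, downstream positive) along the 6 genes with a listed start (y axis), coloured by the number of libraries with a peak. Shared regions (diamonds) include those at the start of Ctnnb1, Axin2, Tcf7l1 and Tcf7l2, and Lef1 holds a single region in 1 library.

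Lef1 (chr3:131110297-131224357) is a Wnt-responsive member of the family. Its one region, chr3:131110211-131110338 over the start, was at the 51.5 percentile in normal-glucose replicate 3 and absent from all 3 high-glucose libraries and from normal-glucose replicate 1. The summit lay 19 bp before the start. With 0.746 regions per 100 kb it was the sparsest of the 10 windows. The promoter (chr3:131110047-131110346, plus strand) is shown for contrast with Axin2, with capitals for the 128 bases covered in that library.
Lef1: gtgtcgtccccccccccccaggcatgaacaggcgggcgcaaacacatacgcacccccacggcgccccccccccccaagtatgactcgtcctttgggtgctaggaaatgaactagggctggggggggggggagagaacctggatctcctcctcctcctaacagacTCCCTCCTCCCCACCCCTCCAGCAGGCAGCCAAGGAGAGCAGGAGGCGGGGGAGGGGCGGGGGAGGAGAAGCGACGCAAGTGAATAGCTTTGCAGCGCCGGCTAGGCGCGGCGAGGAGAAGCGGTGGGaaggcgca

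Tcf7 (chr11:52246527-52283383, minus strand), known best from T cells, had a start peak in all 5 libraries but no shared region. The region chr11:52283309-52283475, across the upper end of the gene, stood at 60.0, 56.6 and 48.2 in high-glucose replicates 1, 2 and 3, against no peak in normal-glucose replicate 1 and 3.6 in replicate 3. Normal-glucose replicate 1 had instead a peak at chr11:52282956-52283071, at the 2.3 percentile. Every high-glucose value was therefore above both normal-glucose values, by at least 44.5 points. Of the 6 genes with a start peak in all 5 libraries Tcf7 was the 1 with this order, against 4.79% of 8142 such genes; the opposite order was found at 0 of the 6, against 18.1%. When all lists were shortened to the length of the shortest, 22149 peaks, or held to a −log10 q of at least 5, the peak of normal-glucose replicate 3 in that region dropped out. The region then had a peak in the high-glucose libraries alone. It was the 1 such region of 38 in the windows with equal lengths, against 0.956% of all regions. At the −log10 q cut it was 1 of 31, against 0.156%. A single region does not show that the pattern is commoner at these genes.

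Searches of the 12 promoter windows listed for these genes (300 bases each) used both strands. The TCF/LEF form CTTTGAT is held by 3.73% of the windows of all genes, the form CTTTGTT by 5.85% and the form CTTTGAA by 5.14%; the helper letters searched were GCCGCC. A match is a description, and no binding was measured. A TCF/LEF form was found in 1 window, at the internal start of Tcf7l2, 14 bp before it, against 13.9% of 32851 windows of all genes. The stretch is shown with the match in capitals (chr19:55895292-55895328, plus strand); no peak overlapped that window, and the nearest shared region began 151 bp after the start.
Tcf7l2: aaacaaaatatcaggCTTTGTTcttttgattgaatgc

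GCCGCC occurred in 6 of the 12 windows, some matches overlapping, against 23.4% of all windows. In the Axin2 promoter printed above it lay 139 and 19 bp before the start, both within the bases covered in all 5 libraries. The 12 windows had a median GC content of 68.7%, against 52.7% for all, and GCCGCC is itself all G and C.

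Glucose was then compared over the 10 genes. High-glucose libraries held 25, 25 and 24 peaks in the windows and normal-glucose libraries 26 and 40. Means were 24.7 ± 0.577 (SD, n = 3) in high glucose and 33.0 ± 9.90 (SD, n = 2) in normal glucose, which differed by -8.33 (exact permutation test, two-sided, p = 0.2, as small as this design allows). As a share of each list this was 0.106% ± 0.00646 in high glucose and 0.103% ± 0.00569 in normal glucose (SD, n = 3 and 2, p = 0.8, exact permutation test). With lists of equal length the high-glucose libraries held 25, 20 and 24 peaks and the normal-glucose libraries 24 and 22, a difference of 0.

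**Figure D4:**
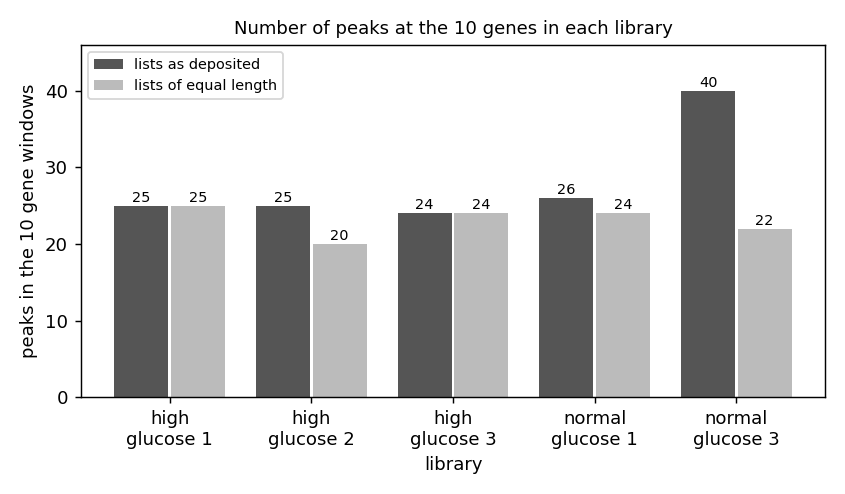
Number of peaks in the 10 gene windows (y axis) in each of 3 high-glucose and 2 normal-glucose libraries (x axis), with lists as deposited (dark) and cut to equal length (light). Normal-glucose replicate 3 drops to 22 from 40 when its list is shortened, and the other libraries lie between 20 and 26 in both.

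Of the 53 regions 0 had a peak throughout high glucose and none in normal glucose (high-glucose-specific), against 0.167% of all regions. The converse pattern (normal-glucose-specific) was found at 1, the Tcf7l1 region, against 3.73% of all regions; it was not specific with equal lengths or at a −log10 q of at least 5. These counts turned on single libraries: normal-glucose-specific regions numbered 2 of 52 when high-glucose replicate 3 was left out, 12 of 47 when normal-glucose replicate 1 was, and 7 of 42 when normal-glucose replicate 3 was. The same settings gave 5.29%, 28.6% and 10.6% of all regions, in that order. High-glucose-specific regions numbered 1 without high-glucose replicate 2 (at Apc), against 0.503% of all regions, and 1 without normal-glucose replicate 3 (at Tcf7), against 3.10%. Within the 13 shared regions normal-glucose replicate 1 had the lowest percentile at 7 and replicate 3 the highest at 8. How often each library came lowest or highest over all shared regions of the genome was not counted. Medians over the 13 were 77.7, 67.6 and 64.2 in high-glucose replicates 1, 2 and 3, and 53.6 and 86.6 in normal-glucose replicates 1 and 3. Over all shared regions of the genome, in the same libraries, they were 70.9, 74.2 and 71.1, and 72.4 and 83.9.

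Other genes of the pathway were mostly open at their starts, the listed targets less so. Of 66 distinct genes (Lgr5 is both a receptor and a listed target) 41 (62.1%) had a start peak in all 5 libraries, against 37.2% of all protein-coding genes, and 0 had one specific to either condition, against 0.0685% of genes for high and 0.653% for normal glucose. Among receptor and cytoplasmic components 18 of 26 were open in all 5, led by the deubiquitinase Usp34, the signal relay Dvl3, the ubiquitin ligase adaptor Fbxw11, the kinase Gsk3b and the casein kinase Csnk1g2. The lowest percentile of their start peaks in any library was 99.7, 91.9, 91.3, 90.7 and 89.6, in that order. Kremen2, Lgr6 and Rnf43 had no start peak in any library.

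Nuclear partners were open in all 5 libraries at 15 of 21 (71.4%), against 37.2% of all protein-coding genes. The highest were Smarca4, a chromatin remodeller, Ctbp1, Tle1 and Tle4, co-repressors, and Bcl9, which links beta-catenin to Pygo proteins, at or above 98.9, 95.0, 94.3, 93.9 and 92.0. No start peak was found at Ctbp2, Pygo1 and Tle2. Of 20 genes listed as targets of the pathway in other settings, 8 (40%) were open in all 5, near the 37.2% of all protein-coding genes. They were led by Bambi, a TGF-beta pseudoreceptor, at 98.4 or above, then Tbx3, Msx1, Cd44 and Wif1 at or above 80.1, 74.2, 72.2 and 68.5. Of the 20 targets, 7 had no start peak in any library, and 46.8% of all genes had none. The 7 included Ascl2, Ccnd1, Dkk1, Msx2 and Nkd1.

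In all, 2 of the 66 genes had a high-glucose-specific region in the gene or 10 kb either side, against 0.420% of all genes, and 5 had a normal-glucose-specific one, against 7.53%. The high-glucose regions were at Bcl9l, with 15.4, 42.9 and 40.2 in high-glucose replicates 1, 2 and 3 (chr9:44495174-44495341), and at Tbl1xr1, a subunit of a corepressor complex, with 36.0, 43.5 and 31.0 (chr3:22076105-22076524). The Tbl1xr1 region lay 128 bp from its listed start, near which normal-glucose replicate 3 had a separate peak at the 25.6 percentile. The normal-glucose regions lay at Cd44, Crebbp, Gsk3a, Lgr4 and Pygo2, with percentiles from 1.8 to 27.6 in normal-glucose replicate 1 and from 4.1 to 70.3 in replicate 3. That of Crebbp overlapped its listed start, and the other 4 lay 1488 to 37439 bp from theirs.

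The window sets which regions count. Just inside 10 kb lay the Tgoln1-side region of Tcf7l1 at 9348 bp, and just outside lay a region 10848 bp from Axin1, at the 41.1 percentile in normal-glucose replicate 3 alone.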

How the data were processed

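Peak lists of 6 ATAC-seq libraries, 1 per sample, were used, with groups and replicate numbers from the labels. Per the submitters' processing notes, which give no roles or settings, MACS2 2.1.0, Bowtie 1.0.0, cutadapt 1.0, DiffBind 1.12.3, edgeR, Picard 1.90 and SAMtools 0.1.19 were named with the build mm10. How duplicates and the transposase offset were handled is not given in the sources used. Each peak in the deposited lists carries a summit, a score, a ratio (fold enrichment), and a p-value and q-value on the −log10 scale, all the authors' own. The lowest −log10 q was 1.30.

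Peaks of the autosomes (1 to 19), X and Y that overlapped by at least 1 bp were joined. Percentiles of −log10 p were taken over each whole list. Genes came from the RefSeq table of GRCm38.p6, which gives neither exons nor introns. Starts were listed for 17492 of 21887 protein-coding genes, and both gene ends were used for the others. Condition-specific regions had a peak in each used library of 1 condition and in 0 of the other condition. Library means were compared by exact permutation tests, and member counts were set beside the same count over all regions or genes, without a test. All 10 genes were named, with regions at starts, condition-specific regions and up to 3 further shared regions; of other pathway genes, up to 5 with the highest start peak and up to 5 without one per list, and any specific to a condition. The genes and lists were chosen with earlier results of these data known. Alternatives were a −log10 q of at least 5, equal list lengths, all 6 libraries, each library left out, merging within 200 bp, cover of at least 0.5 of a region, windows of 0 or 50 kb, start windows of 250 bp or 2.5 kb, and same-numbered libraries as pairs. Gene ends for every gene were added after seeing the data. Python 3.11.15, numpy 2.4.6, pandas 2.3.3 and matplotlib 3.10.9 were used. Calls were tested on simulated data, and merging was checked with bedtools 2.31.1.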

Additional observations from a re-analysis of the deposited data

How the results depend on the processing

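Depth is unknown without read counts, and list length bears on which weak sites appear. The difference in the number of peaks, -8.33, became 2.67 with all 6 libraries and 0 with equal lengths, and ranged from -15.3 to -1.33 with each library left out. The difference in the share of peaks, 0.00318 points, was 0.0193 at a −log10 q of at least 5 (p = 0.2, exact permutation test, the smallest possible), 0.0376 with all 6 libraries (p = 0.4, exact permutation test), 0 with equal lengths, -0.00288 for gene bodies alone and -0.00772 with 50 kb either side, and ranged from -0.000839 to 0.00720 with each library left out. The smallest possible p was 0.1 to 0.5 depending on the setting, so these tests could not decide whether either differed between conditions.

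Shared regions numbered 13, but 0 with all 6 libraries, since normal-glucose replicate 2 had no peak at these genes, and 6 where peaks had to cover 0.5 of a region, a stricter rule by construction; leaving out a library gave 13 to 15. Start peaks in all libraries were found at 6 genes, at 0 with all 6 libraries, 4 at a −log10 q of at least 5 and with a start window of 250 bp, 5 with equal lengths and with both gene ends for every gene, and 6 to 7 with a library left out. High-glucose-specific regions numbered 0, but 1 at a −log10 q of at least 5 and with equal lengths (Tcf7 in both), and 0 to 1 with a library left out. Normal-glucose-specific regions numbered 1, but 0 at a −log10 q of at least 5, with equal lengths and with all 6 libraries, 2 with 50 kb either side, and 1 to 12 with a library left out. The 12, without normal-glucose replicate 1, were of 47 regions in a setting where 28.6% of all regions had that pattern; the cause was not tested. With replicates 1 and 3 as pairs, a replicate block that the labels do not say marks a shared culture, the differences were -8.5 peaks and 0.00639 points (p = 0.5 for both, exact permutation test, the smallest possible).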
